A study of Rattus norvegicus with 4 samples.

Results

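The miR-23, miR-27 and miR-24 guide strands were followed in primary rat chondrocytes, the matrix-producing cells of cartilage, during exposure to interleukin-1β (IL-1β), an inflammatory cytokine. The members were the 5 probes listed as rno-miR-23a, rno-miR-23b, rno-miR-27a, rno-miR-27b and rno-miR-24 (written here without the rat prefix), taken by name and without the star forms, of the 679 rat microRNA (miRNA) probes on each array. The cells had been cultured at 200000 per ml and received 10 ng/ml IL-1β and were collected 6, 12 or 24 h later, or were untreated (the control, 0 h). A single array of a single sample stands for every group, 4 arrays in all, and a probe has 5 spots on an array. The animals' strain and age, and whether cells of several animals were pooled, are not given in the sources used here. No group had a second array, so no test between groups was possible, no p-value was computed, and every error given covers spot-to-spot error within an array only. The only untreated sample is that of 0 h, so that the effect of IL-1β and that of time in culture cannot be told apart in any difference from the control.

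These miRNAs come from a pair of paralogous clusters, each of which carries a miR-23, a miR-27 and a miR-24 hairpin on 1 primary transcript. A miRNA acts as the guide of an Argonaute complex, and its seed, bases 2 to 8, pairs with target mRNAs, which lowers their translation or stability. In human chondrocytes, miR-27b is known as a regulator of MMP13, the collagenase that cleaves type II collagen of cartilage and that IL-1β induces. Rat Mmp13 mRNA is not measured on these arrays, so that nothing here bears on that target directly.

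The target sequences of the 5 probes are shown because the members fall into 3 seed groups, and because the paralogs are so alike that their probes may share signal. Each is written 5′ to 3′ with the seed in capitals.
miR-23a: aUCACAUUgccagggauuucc
miR-23b: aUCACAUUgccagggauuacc
miR-27a: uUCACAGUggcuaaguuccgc
miR-27b: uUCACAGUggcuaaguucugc
miR-24: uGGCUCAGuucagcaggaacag
All 5 are identical to the 3p mature sequences of RefSeq (build GRCr8). Counted from 1 at the 5′ end, miR-23a and miR-23b differ by 1 base, U19A, and miR-27a and miR-27b by 1 base, C19U, both outside the seed. No probe of the 679 outside each pair has the same 7-base seed. The miR-23 and miR-27 seeds are alike at 6 of 7 positions. Outside the members, the most similar probes are at least 7 edits away, and miR-24 is 7 edits from its most similar probe. Cross-hybridization between miR-23a and miR-23b, or between miR-27a and miR-27b, was not tested.

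The 6 hairpins that carry these guides are given next, from RefSeq, because they show which precursors each probe can stand for. The guide is in capitals and lies on the 3′ arm in each. The hairpins of the miR-23a cluster lie within 389 bases of the minus strand of chromosome 19 (chr19:40859455-40859843, GRCr8), where no annotated gene spans them.
Mir23a: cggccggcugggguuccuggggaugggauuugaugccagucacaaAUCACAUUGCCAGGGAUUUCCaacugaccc
Mir27a: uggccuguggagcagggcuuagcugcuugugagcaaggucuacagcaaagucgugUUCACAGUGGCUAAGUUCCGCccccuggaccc
Mir24-2: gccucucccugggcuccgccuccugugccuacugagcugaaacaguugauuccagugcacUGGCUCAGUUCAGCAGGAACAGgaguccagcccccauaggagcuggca
The hairpins of the miR-23b cluster lie within 814 bases of the minus strand of chromosome 17 (chr17:1818669-1819482, GRCr8), inside the span of Aopep, an aminopeptidase gene.
Mir23b: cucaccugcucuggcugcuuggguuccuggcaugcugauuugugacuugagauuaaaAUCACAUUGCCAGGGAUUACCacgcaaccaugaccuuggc
Mir27b: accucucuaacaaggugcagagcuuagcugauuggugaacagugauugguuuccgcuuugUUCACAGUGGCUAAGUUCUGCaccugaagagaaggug
Mir24-1: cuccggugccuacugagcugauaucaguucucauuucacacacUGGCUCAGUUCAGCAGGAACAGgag
The mature miR-24 is the same from both clusters, so that its probe reads their sum and cannot assign a difference to one of them.

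The detection limit of an array was the 95th percentile of its 261 empty spots, and 3 of 5 spots over it made a miRNA detected. This limit was between 54.2 (6 h) and 151.3 (control) intensity units, and total miRNA intensity between 2.95e+06 units (control) and 4.71e+06 units (12 h). Between 187 (control) and 355 (6 h) of the 679 miRNAs were detected, 163 of them on all 4 arrays. The fewest were thus detected where the limit was highest and the most where it was lowest. The part of the limit in these counts, and in detection on single arrays, was not tested. Of the chondrocyte markers, miR-140, miR-140* and miR-455* were detected on every array and miR-455 on the 3 treated arrays, whereas no listed red blood cell, leukocyte, epithelial or liver miRNA was detected on any. Of markers of other cells, miR-126 of endothelium was detected at 6, 12 and 24 h, miR-206 of muscle and miR-128 of neural tissue on all 4 arrays, and miR-1, miR-133a and miR-124 at 6 h. Summed deposited intensity ran between 10164 and 14277 units for the 4 chondrocyte markers, 129.6 and 270.5 units for the 2 endothelial ones, 971.7 and 1216 units for the 4 muscle ones and 473.8 and 659.6 units for the 3 neural ones. The part of such cells in the results was not tested. All 5 members were bright, with all 5 spots above the limit on every array, and their means were 58.9 to 496 times the limit. The files carry no saturation flag, and the brightest spot of any array read 63062 units.

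Levels are given as deposited, as mean ± SD of the 5 spots in intensity units, and after background correction and quantile normalization, on the log2 scale. Deposited intensities compare arrays without correction for overall brightness, and each is set only against the same probe on another array.

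miR-23a, whose known targets include the mRNA of the enzyme glutaminase, had deposited intensities of 23518 ± 1658, 24461 ± 704, 28634 ± 2963 and 29897 ± 2886 units at 0, 6, 12 and 24 h. After normalization its log2 levels were 14.79, 14.56, 14.53 and 14.72. The control and 24 h arrays thus held the higher normalized levels of miR-23a, and 6 h and 12 h the lower ones. The control and 24 h levels, and the 6 h and 12 h levels, lay within 2 spot standard errors of each other. Spots of every pair of arrays next to each other in that order overlapped.

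miR-23b, the paralog from chromosome 17, had deposited intensities of 28213 ± 1831, 26874 ± 320, 31004 ± 3006 and 33992 ± 3016 units at 0, 6, 12 and 24 h. Its normalized log2 levels were 15.00, 14.76, 14.69 and 14.89. The order of the arrays was that of miR-23a, with the control highest and 12 h lowest. The control and 24 h again did not differ beyond 2 spot standard errors, nor did 6 h and 12 h.

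miR-27a, best known as a regulator of adipocyte differentiation, had deposited intensities of 8909 ± 593, 12181 ± 822, 15887 ± 653 and 17894 ± 999 units at 0, 6, 12 and 24 h. Its normalized log2 levels were 13.73, 13.60, 13.59 and 13.87. The 24 h array was highest on the normalized scale, ahead of the control, whereas before normalization the control was lowest. The 6 h and 12 h levels of miR-27a lay within 2 spot standard errors of each other.

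miR-27b had deposited intensities of 13250 ± 967, 15763 ± 1642, 18942 ± 904 and 23499 ± 1672 units at 0, 6, 12 and 24 h. Its normalized log2 levels were 14.09, 14.003, 13.89 and 14.29. As for miR-27a, 24 h was highest and 12 h lowest. Only the step between 24 h and the control, the next in order, exceeded 2 spot standard errors, and the spots of these 2 arrays overlapped.

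miR-24, known among other roles for targets in the cell cycle and, in human chondrocytes, for the senescence gene p16INK4a, had deposited intensities of 15253 ± 1252, 15151 ± 407, 19136 ± 1572 and 29618 ± 2386 units at 0, 6, 12 and 24 h. Its normalized log2 levels were 14.29, 13.95, 13.91 and 14.74. The 24 h spots of miR-24 overlapped with those of no other array, on the deposited scale (26493 to 32608 units, against 20212 units for the brightest spot of the other arrays) or the normalized one (14.61 to 14.86 at 24 h against at most 14.43 in the control). Its control level in turn lay above the 6 h and 12 h levels, which did not differ beyond 2 spot standard errors. In the authors' deposited table, whose method of normalization is not given in the sources used here, miR-24 read 20143, 15589, 15161 and 27201 at 0, 6, 12 and 24 h, the same order of arrays.

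**Figure D1:**
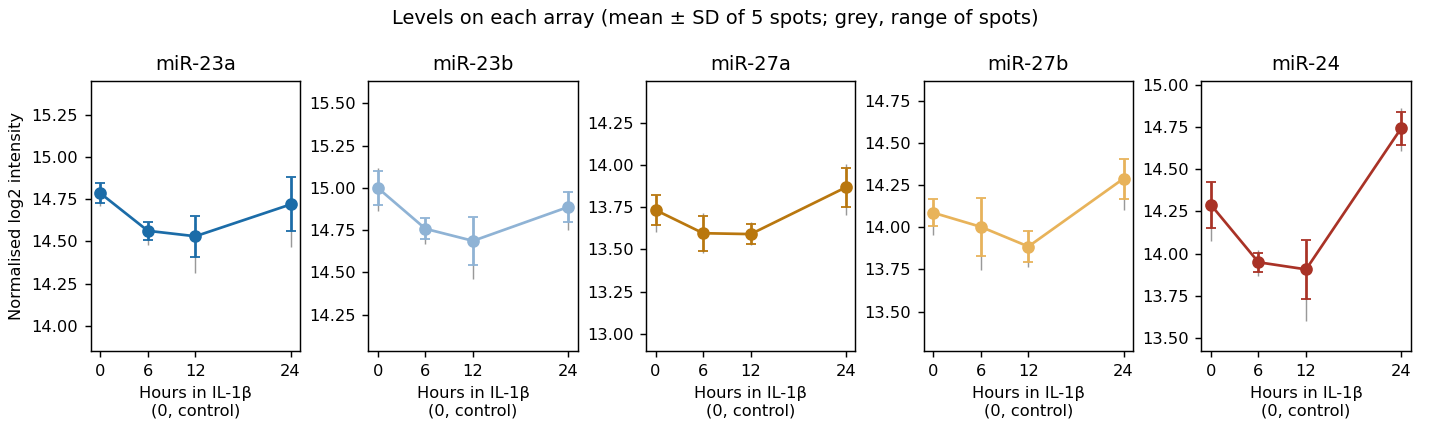
Normalized log2 intensity (vertical axes, each spanning the same range) of the 5 guide strands against hours in IL-1β (horizontal axes, with 0 the untreated control); points and bars are the mean ± SD of the 5 spots of 1 array, and grey lines the range of the spots. On this scale all 5 are lower at 6 h and 12 h than in the control, a direction that turns for some or all of them without normalization, and miR-24 is highest at 24 h, at 14.74.

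The first question of the design was how each treated array differed from untreated cells. The call of a change required a log2 difference of 1 or more (2-fold) that exceeded 2 spot standard errors. It was made over miRNAs detected on either array of a comparison. No member was called in any comparison. The shares of all compared miRNAs that were called are 3.66% at 6 h, 9.64% at 12 h and 13.7% at 24 h against the control, so that with 5 members a count of 0 is near this background. All 3 comparisons share the 1 control array.

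At 6 h, all 5 members read below the control on the normalized scale, with log2 differences of -0.22 ± 0.04 (spot standard error) for miR-23a, -0.24 ± 0.05 for miR-23b, -0.14 ± 0.06 for miR-27a, -0.08 ± 0.08 for miR-27b and -0.34 ± 0.07 for miR-24. The spots of the 6 h and control arrays did not overlap for miR-23a, miR-23b and miR-24, and did for both miR-27 probes. The members' median was -0.22, beside 0.03 over the 355 miRNAs compared and -0.01 over the 187 of them detected on both arrays.

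At 12 h the members were again below the control, by log2 differences of -0.26 ± 0.06 for miR-23a, -0.31 ± 0.08 for miR-23b, -0.14 ± 0.05 for miR-27a, -0.20 ± 0.05 for miR-27b and -0.38 ± 0.10 for miR-24. All 5 exceeded 2 spot standard errors. Their median was -0.26, beside 0.09 over 249 miRNAs and -0.05 over the 178 of them detected on both arrays. A difference the size of miR-24's or larger was seen in about as many of the compared miRNAs as not (49.8% had a smaller one). The direction at 6 h and 12 h depended on how the arrays were scaled: without normalization between arrays, the 12 h differences ran between 0.13 (miR-23b) and 0.84 (miR-27a), all above the control, and at 6 h those of miR-23a, miR-27a and miR-27b were 0.06, 0.45 and 0.25, with miR-23b at -0.07 and the miR-24 intensity at 0.993 times that of the control. Over all compared miRNAs that scaling put the median at -0.32 at 6 h and 0.40 at 12 h.

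At 24 h the 3 seed groups gave different values. Both miR-23 probes were near the control, at -0.07 ± 0.08 (miR-23a) and -0.11 ± 0.06 (miR-23b), and within 2 spot standard errors of it. Both miR-27 probes were slightly above it, at 0.13 ± 0.07 for miR-27a (1.10-fold) and 0.20 ± 0.06 for miR-27b (1.15-fold), with spots that overlapped with those of the control. miR-24 was furthest above it, at 0.45 ± 0.07 (1.37-fold), and its spots did not overlap with the control's. The members' median was 0.13, beside 0.02 over 233 miRNAs and -0.02 over the 164 of them detected on both arrays. Of the 233, 55.8% had a smaller difference in size than miR-24.

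The 24 h values of miR-27a, miR-27b and miR-24 against the control were positive under all 12 alternative processings, whereas miR-23a and miR-23b took either sign. miR-24 ranged between 0.33 (loess) and 0.96 (no normalization), and miR-27a between 0.13 and 1.01. The highest value of miR-27a, 1.01 without normalization between arrays, was past 2-fold and the only such call of a member in any processing that kept the 2-fold rule. The deposited intensities behind it were 2.01 times as high at 24 h as in the control for miR-27a, 1.77 times for miR-27b and 1.94 times for miR-24, against 1.27 times for miR-23a and 1.205 times for miR-23b. Across the 163 miRNAs detected on all arrays the median of this ratio was 1.29, and the ratio of total miRNA intensity was 1.42. The part of overall array brightness in these values was not tested.

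**Figure D2:**
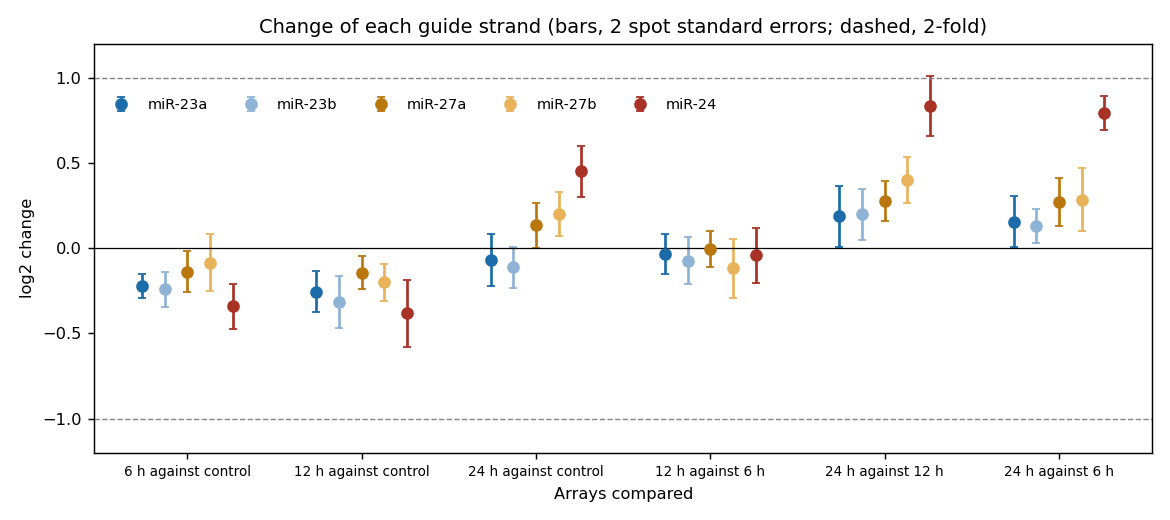
The log2 change of each guide strand (vertical axis) in the 6 comparisons of arrays (horizontal axis); points are the difference of the 2 arrays' mean levels, bars 2 spot standard errors, and dashed lines mark 2-fold. No point reaches 2-fold, and miR-24 is highest in the comparisons of 24 h with 12 h (0.84) and with 6 h (0.79).

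Comparisons among the treated arrays do not involve the control. Between 12 h and 6 h, no member exceeded 2 spot standard errors, with log2 differences between -0.12 (miR-27b) and -0.01 (miR-27a) and a median of -0.04, equal to that of all 355 miRNAs compared, of which 1.41% were called. The direction of these small values again followed the scaling, with a members' median of 0.27 without normalization and -0.42 after median scaling (arrays set to a common median over the 163 miRNAs).

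Between 24 h and 12 h, all 5 members were higher at 24 h. The log2 differences were 0.19 ± 0.09 for miR-23a, 0.20 ± 0.08 for miR-23b, 0.28 ± 0.06 for miR-27a, 0.40 ± 0.07 for miR-27b and 0.84 ± 0.09 for miR-24, which is 1.78-fold. The spots of the 2 arrays overlapped for both miR-23 probes and did not for miR-27a, miR-27b and miR-24. The members' median was 0.28, beside 0.02 over 248 miRNAs, of which 9.68% were called, and 0.10 over the 202 of them detected on both arrays. Of these 248, 87.1% had a smaller difference in size than miR-24. Each of the 5 kept its positive sign in all 11 alternative processings of this comparison, and miR-24 ranged between 0.63 and 0.91.

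Between 24 h and 6 h, the log2 differences were 0.16 ± 0.08 for miR-23a, 0.13 ± 0.05 for miR-23b, 0.27 ± 0.07 for miR-27a, 0.29 ± 0.09 for miR-27b and 0.79 ± 0.05 for miR-24 (1.73-fold). Only the spots of miR-24 did not overlap between these 2 arrays. The members' median was 0.27, beside -0.06 over 357 miRNAs, of which 7.00% were called, and 0.02 over those detected on both arrays. In size, the difference of miR-24 exceeded 89.1% of those of the compared miRNAs. The median size was 0.21 over the 357, but 0.31 over the 208 of them detected on both arrays. miR-24 ranged between 0.55 and 0.96 over 11 alternative processings and both miR-27 probes stayed positive, whereas miR-23a and miR-23b were -0.12 and -0.07 after median scaling. With a 1.5-fold in place of the 2-fold limit, miR-24 was called against both 12 h and 6 h and no other member was. That limit called 25.0% of all miRNAs compared between 24 h and 12 h and 20.7% between 24 h and 6 h, and 1 of 5 members is near those shares.

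**Figure D3:**
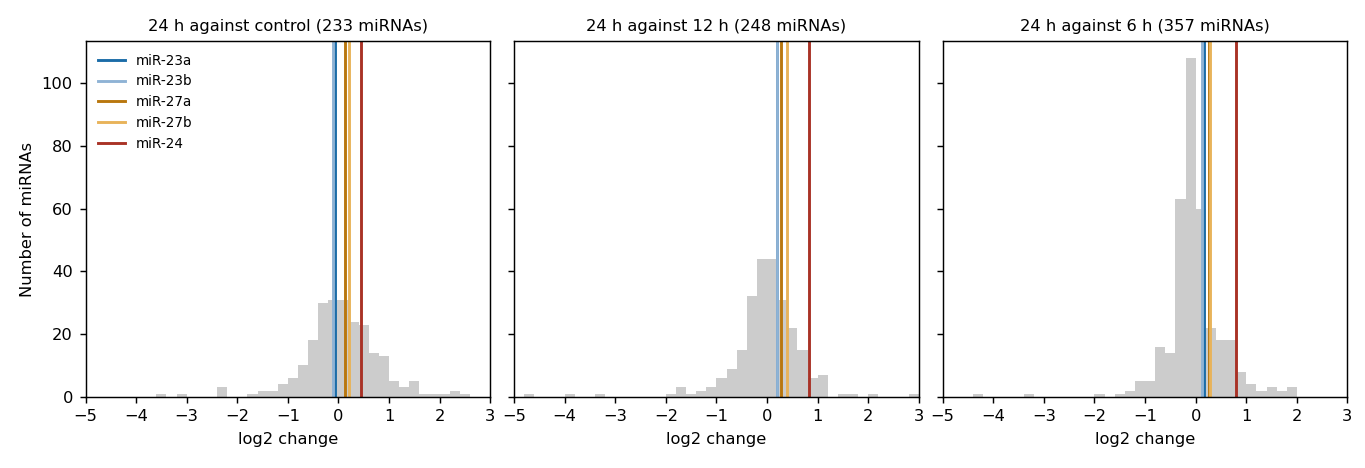
Number of compared miRNAs (vertical axes, grey bars) by log2 change (horizontal axes) at 24 h against the control, 12 h and 6 h, with the 5 guide strands as coloured lines. The miR-23 and miR-27 lines lie inside the bulk of each distribution, and miR-24 lies to the right of the other members, at 0.45, 0.84 and 0.79.

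Members of 1 cluster are cut from a common transcript, so the changes of different members were compared within the same pair of arrays. Any scaling by 1 factor per array cancels in such a difference of changes. For the paralogs, the change of miR-23a minus that of miR-23b was between -0.01 and 0.06 in the 6 comparisons, and the change of miR-27a minus that of miR-27b between -0.13 and 0.11, none beyond 2 spot standard errors. Without normalization the miR-27a change exceeded that of miR-27b by 0.20 at 6 h, 0.32 at 12 h and 0.18 at 24 h against the control. At 24 h against the control, the change of miR-27a exceeded that of miR-23a by 0.20 ± 0.10. That of miR-27b exceeded that of miR-23b by 0.31 ± 0.09, both beyond 2 spot standard errors. Over the 12 alternatives these ranged between 0.20 and 0.66 and between 0.29 and 0.56. In the other comparisons, only miR-27b over miR-23b between 24 h and 12 h (0.20 ± 0.10) exceeded that error.

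In the comparisons of 24 h with 12 h and with 6 h, the change of miR-24 exceeded that of its cluster partners by more than 2 spot standard errors, whereas between 12 h and 6 h it differed from none of them beyond that error. Between 24 h and 12 h its change exceeded that of miR-23a by 0.65 ± 0.13, of miR-23b by 0.64 ± 0.12, of miR-27a by 0.56 ± 0.11 and of miR-27b by 0.43 ± 0.11 (log2 difference ± spot standard error). Between 24 h and 6 h the excesses were 0.64 ± 0.09, 0.66 ± 0.07, 0.52 ± 0.09 and 0.51 ± 0.11 in the same order. All 8 values stayed positive under the 11 alternatives of each comparison, and the lowest was 0.32, over miR-27b between 24 h and 12 h. In deposited intensity, miR-24 was 1.95 times as bright at 24 h as at 6 h, miR-23a 1.22 times, miR-23b 1.26 times, miR-27a 1.47 times and miR-27b 1.49 times, where the median of the 163 miRNAs was 1.21. Whether spread between arrays of like samples would give such differences cannot be told from 1 array per time.

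Against the control, the 24 h change of miR-24 exceeded that of miR-23a by 0.52 ± 0.11 and of miR-23b by 0.57 ± 0.10, and these differences ranged between 0.46 and 0.81 over the alternatives. Its excess over miR-27a was 0.32 ± 0.10, but -0.03 after cyclic loess and -0.05 after median scaling or without normalization. Its excess over miR-27b, 0.25 ± 0.10, stayed positive under all 12 alternatives, between 0.13 and 0.49. At 6 h and 12 h, miR-24 did not differ from either miR-23 probe beyond 2 spot standard errors, and its change minus that of miR-27a was -0.20 ± 0.09 at 6 h and -0.24 ± 0.11 at 12 h. Its change minus that of miR-27b was -0.26 ± 0.11 at 6 h, and -0.18 ± 0.11 at 12 h, where it was within 2 spot standard errors.

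**Figure D4:**
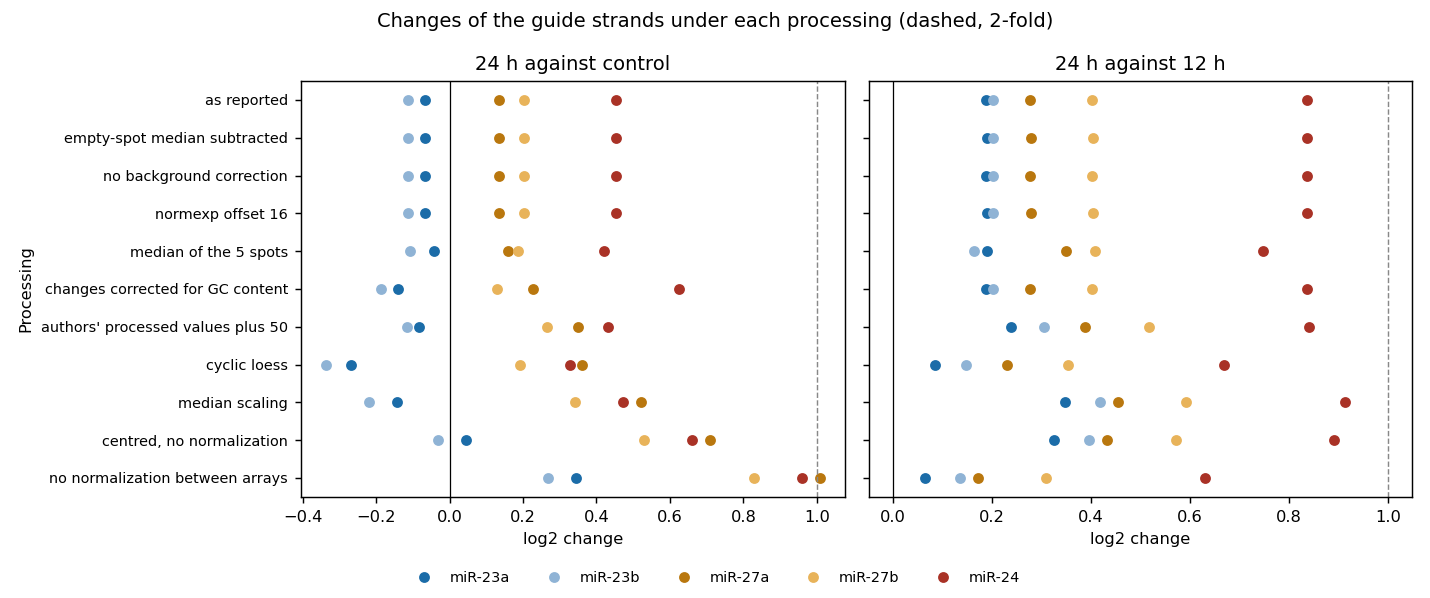
The log2 change (horizontal axes) of the 5 guide strands at 24 h against the control (left) and at 24 h against 12 h (right), under the processing reported and 10 of the alternatives (rows). On the right miR-24 stays between 0.63 and 0.91 and above every other member in each row, whereas on the left the positions shift with the normalization and miR-27a lies above miR-24 in the 4 lowest rows.

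The opposite arms of the 6 hairpins, the star forms, offer a readout that the choice of members did not use. They come from the same precursors, and their probes differ from those of the guides. They were read on the same 4 arrays and normalized with the guides, so that they add no second sample. Most were close to the detection limit: miR-23a*, miR-27b* and miR-24-2* were detected on all 4 arrays and the other 3 were not. The sequences of the miR-24 arms are shown because, unlike the guide, they tell the clusters apart, with the seed in capitals.
miR-24-1*: gUGCCUACugagcugauaucag
miR-24-2*: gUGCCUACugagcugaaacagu
They are 3 edits apart, counted as insertions, deletions or substitutions.

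miR-24-2*, from the chromosome 19 cluster, had median spot intensities of 286, 244, 456 and 597 units at 0, 6, 12 and 24 h and normalized log2 levels of 8.40, 8.34, 8.50 and 9.10. Its 24 h level stood 0.71 ± 0.07 above the control (1.63-fold), 0.60 ± 0.07 above 12 h (1.52-fold) and 0.77 ± 0.10 above 6 h (1.70-fold), with no overlap of spots in any of the 3. It was under the 2-fold limit in each, and positive under every alternative processing, between 0.33 and 1.25 over the 3 comparisons. Without normalization it was past that limit against the control (1.08) and against 6 h (1.25). With those changes centred on their median, it was 0.78 against the control and 1.22, again past the limit, against 6 h. Like miR-24, then, miR-24-2* was highest at 24 h, but it was not lower at 6 h (-0.06 ± 0.11) and 12 h (0.10 ± 0.08) than in the control beyond its spot error.

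miR-24-1*, from the chromosome 17 cluster, was not detected in the control and lay just above the limit at 6, 12 and 24 h, with median spot intensities of 71.9, 116 and 89.2 units. Its mean deposited intensity was still highest in the control, and was 0.560, 0.929 and 0.713 times the control's at 6, 12 and 24 h. After normalization its 24 h level stood 0.30 ± 0.05 above the control (log2), with no overlap of spots, and 0.14 ± 0.05 above 6 h, with overlap. The normalized 12 h level stood 0.29 ± 0.08 above the control, with overlap. The direction of these differences from the control thus turned with the scaling, and no rise of this arm can be read from them. Its log2 difference between 24 h and 12 h was 0.01 ± 0.07, at mean intensities 1.05 times the limit at 24 h and 1.22 times the limit at 12 h. miR-23a* and miR-27b* differed from the control at 24 h by 0.04 ± 0.08 and 0.04 ± 0.13, and both took either sign with the processing, between -0.52 (median scaling) and 0.37 (GC correction) for miR-23a* and between -0.67 (median scaling) and 0.16 (median of the spots) for miR-27b*. miR-23b* was detected at 6 h and 12 h only, miR-27a* at 6 h only, and miR-3074, whose hairpin overlaps that of miR-24-1, on no array. Mean deposited intensities of miR-23b* and miR-27a* were nonetheless higher in the control (149 and 112 units) than at 6 h (81.6 and 53.7 units). The control array had the highest limit and the 6 h array the lowest.

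**Figure D5:**
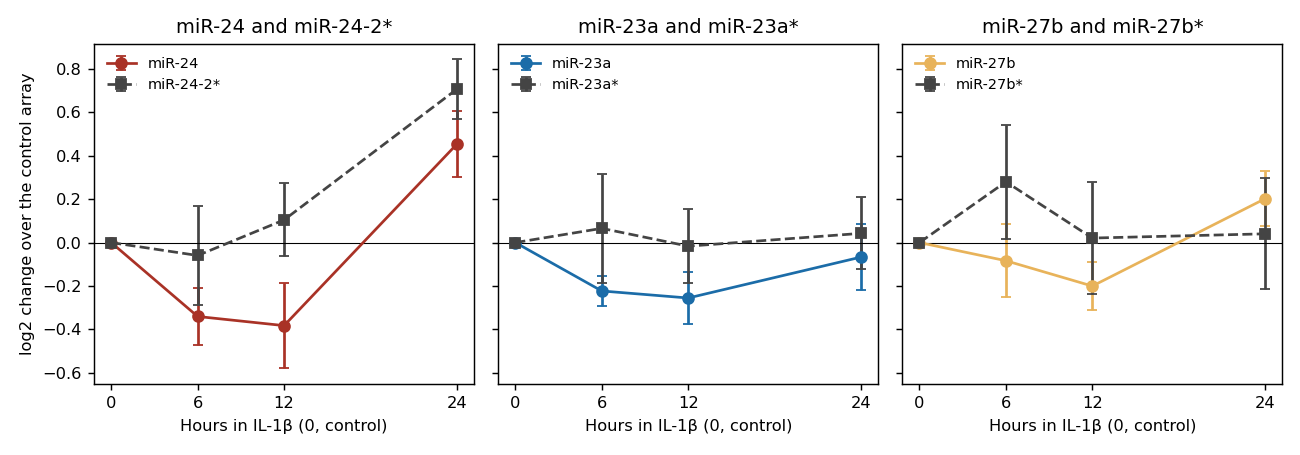
The log2 change over the control array (vertical axis) against hours in IL-1β (horizontal axes) for 3 guides and the opposite arm of a hairpin of each that was detected on all 4 arrays; bars are 2 spot standard errors and the 0 h point is 0 by definition. miR-24 and miR-24-2* are both highest at 24 h, at 0.45 and 0.71, and the arms of miR-23a and miR-27b are both at 0.04 at that time on this scale, with signs that turn under other processings.

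To place miR-27 among miRNAs with a link to MMP13, a list of 14 names reported to lower MMP13 or to modulate its release was followed, mostly from work in human cells. No probe is named miR-148a, and miR-148b is present as both arms, so that 14 probes entered, of which 10 were detected on at least 1 array of each comparison with the control. None of the 10 was called at 6 h, against 3.66% of all compared miRNAs. At that time 5 read above the control and 5 below, between -0.53 (miR-140*) and 0.97 ± 0.13 (miR-146a, just under the limit). At 12 h 2 were called, both higher, against the 9.64% of all compared miRNAs given before: miR-146a, an NF-κB-induced brake on IL-1 receptor signalling, at 1.39 ± 0.10, and miR-148b-3p at 1.002 ± 0.15. Of the 10, 5 read above the control at 12 h and 5 below, with a median of -0.002. The lowest were miR-320 at -0.91 ± 0.07, miR-127 at -0.71 ± 0.07 and miR-140* at -0.70 ± 0.13, all under the 2-fold limit. At 24 h 2 were called, both higher, against 13.7%: miR-146a at 2.52 ± 0.13 and miR-140, the cartilage-enriched miRNA whose targets include the aggrecanase Adamts5, at 1.37 ± 0.10.

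The other listed miRNAs that were compared at 24 h read 0.86 ± 0.12 (miR-411, not detected in the control), 0.81 ± 0.05 (miR-222), 0.53 ± 0.14 (miR-148b-3p), 0.15 ± 0.08 (miR-127), -0.23 ± 0.06 (miR-320) and -0.31 ± 0.09 (miR-140*). The median of the list without the miR-27 probes was 0.67 at 24 h over 8 miRNAs, beside 0.13 and 0.20 for miR-27a and miR-27b and 0.02 for all compared miRNAs. The order of miR-27a, miR-27b and miR-127 depended on the processing: in the authors' deposited table, with 50 added before log2, miR-27a read 0.35, miR-27b 0.26 and miR-127 0.24.

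By the smallest root-mean-square difference of mean-centred log2 levels over the 4 arrays, among 158 other miRNAs detected on all of them, the courses most like that of miR-23a were those of miR-210 (0.0022), miR-26a (0.014) and miR-25 (0.046), and the same 3 were closest to miR-23b. Those closest to miR-27a were miR-652 (0.046), miR-199a-3p (0.046) and miR-379 (0.053), and to miR-27b miR-16 (0.033), miR-21 (0.034) and miR-199a-3p (0.051). The courses most like that of miR-24 were those of miR-34a (0.067), miR-31 (0.088) and miR-130a (0.13), whose 24 h levels stood 0.61, 0.67 and 0.43 above the control. Placed among the 158, miR-23b ranked 3 by closeness to miR-23a, and miR-27b ranked 3 by closeness to miR-27a. miR-24 ranked 87 by closeness to miR-23a, 86 to miR-23b, 63 to miR-27a and 46 to miR-27b. By closeness to miR-24, in turn, miR-23a ranked 31, miR-23b 33, miR-27a 22 and miR-27b 16. With 4 arrays of 1 sample each, such likeness is a description of these arrays.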

How the data were processed

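Per the labels, the authors kept the small RNAs of total RNA, added a poly(A) tail, ligated a tag and stained it with Cy5. Per the file headers, each deposited file gives the mean intensity of 3968 spots, and its lowest values lie above 0. The scanner and image software are not given in the sources used here. The authors' deposited table holds 1 intensity per miRNA and array, made by a method not given in the sources used here. Spot intensities were corrected by normexp (limma 3.58.1, R 4.3.3, offset 50, fitted on all spots), quantile-normalized (miRNA spots only), converted to log2 and averaged per probe. The steps were tested on simulated data. The simulated arrays were all made from the control array, so they could not test how differences in brightness between arrays are handled. Python 3.11.15, numpy 2.4.6, pandas 2.3.3 and matplotlib 3.10.9 did the rest. Sequences and loci came from RefSeq GRCr8, and miR-23a* was matched to its hairpin alone. The members and lists were chosen with earlier results of these data known. Named miRNAs are the members, their opposite arms, the 3 closest courses per member, the MMP13 list and the cell markers. Alternatives changed background, offset, normalization, arrays normalized, spot summary, GC content, filters, rules and the source of the values.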

Additional observations from a re-analysis of the deposited data

How the results depend on the processing

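Background correction, offset, spot summary and leaving out of the normalization 1 treated array that a comparison did not use moved no change of a member, of the 3 arms detected throughout or of a pair by more than its spot SD. Of 96 such values, cyclic loess moved 20, the correction for GC content 6 and the authors' deposited values 3 by more than that SD, and the choice of scaling moved most. Over all compared miRNAs, changes against the control correlated with GC content, at r of -0.43, -0.47 and -0.44 at 6, 12 and 24 h. Corrected for it, miR-24 read 0.62 at 24 h against the control. Its 12 h change minus that of miR-23a became 0.11 (from -0.13), and minus that of miR-27b 0.05 (from -0.18). After median scaling, over the 163 miRNAs detected throughout, the members' median log2 change was -0.018, -0.44 and 0.34 at 6, 12 and 24 h against the control, -0.42 at 12 h against 6 h, 0.45 at 24 h against 12 h and 0.15 at 24 h against 6 h. Without normalization it was 0.060, 0.33 and 0.83 against the control, 0.27 at 12 h against 6 h, 0.17 at 24 h against 12 h and 0.55 at 24 h against 6 h, beside 0.28 and 0.27 as reported in the comparisons of 24 h with 12 h and with 6 h. The control array was not left out. Centring these changes on their median gave 0.38, -0.075 and 0.53 against the control and 0.52 at 24 h against 6 h. The number of members called became 1 at 24 h against the control without normalization (miR-27a), and 1 with the 1.5-fold limit at 24 h against 12 h and 1 at 24 h against 6 h (miR-24). Of all compared miRNAs, 9 to 37 were called at 6 h, 20 to 73 at 12 h and 18 to 79 at 24 h against the control, beside 13, 24 and 32 as reported. Between treated arrays the ranges were 4 to 25 (12 h against 6 h), 20 to 62 (24 h against 12 h) and 23 to 74 (24 h against 6 h), beside 5, 24 and 25. All alternatives were listed with earlier results known. The cause of these shifts was not tested. No paired analysis was possible because each group has 1 sample. The number of arrays, 1 per group, limits the precision.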
